A study of Drosophila melanogaster with 6 samples.

Results

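The genes described here are the transcripts that stood high in 1 of 3 control libraries, the library of control 3, in RNA from the body wall of Drosophila larvae. They were chosen by the readout itself. A gene was taken when its level in control 3 was at least 5 CPM (counts per 1000000 counts of the library) and at least 3 times its level in control 1 and in control 2, and when its symbol did not start with Lsp, Fbp, Cpr, Twdl, Osi, Obp, Att or lncRNA:. In all, 45 of the 17477 genes counted passed the thresholds, 4 of these were left out by symbol, and 41 remained. The 41 members comprised 38 protein-coding genes, 2 ribosomal RNA pseudogenes and 1 identifier, FBgn0010381, for which no symbol was at hand and to which the symbol filter could not be applied. Because control 3 chose the members, their height in that library over controls 1 and 2 is a description and carries no test. The levels in the 3 exercised libraries were not used by the rule.

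The study drove repeated contraction of larval muscles with light to ask how transcription responds to acute exercise. Control larvae were w1118, and exercised larvae carried OK6-Gal4bc > CsChrimbc, in which the motor neuron driver OK6-Gal4 expresses the red-light-gated cation channel CsChrimson, on stocks backcrossed to w1118. Larvae of both groups were at stage L3, of mixed sex, kept on food with all-trans retinal, the cofactor of the channel, and taken at the end of the 2 h light regimen. Poly(A)-selected mRNA of 3 biological replicates a group came from dissected cuticle preparations labelled as body wall muscles. Genotype and exercise changed together between the groups, so that they cannot be told apart in any comparison below. P-values measure the spread between 3 libraries a group. In the members the rule itself widened the spread among the controls, so their standard errors and p-values over all 6 libraries are not free of the rule.

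The larval fat body is the tissue of flies that combines roles of liver and adipose tissue. It lies inside the body cavity against the body wall, stores lipid and glycogen, and secretes into the hemolymph the lipoproteins that carry lipid, the larval serum proteins that store amino acids, clotting factors and, on infection, antimicrobial peptides. In a bulk library of dissected body wall, fewer cells of a type and less RNA per cell cannot be told apart.

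The 6 libraries held between 19625425 and 23953341 counts, so depth differed little between them. Control 3 stood apart from the other controls in the sum of fat body markers, of which 4 passed the thresholds of the rule. Muscle markers did not differ in the same way, as given further on. Fold changes and counts of calls are therefore given with and without this library. Exercised against control larvae, edgeR called 10.3% of the 9127 genes tested higher and 8.52% lower at an adjusted p below 0.05.

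Levels of the members in control 3 ran from just over the minimum of 5 CPM to 450.1 CPM, and 23 of the 41 lay under 10 CPM. The fewest counts behind any member in that library were 117. Control 3 exceeded the mean of controls 1 and 2, called the base below, by between 3.29-fold and 140-fold over the members, with a median of 6.36-fold. Summed over the members, the level was 174 and 179.8 CPM in controls 1 and 2 and 1143 CPM in control 3. In exercised 1, 2 and 3 the same sum was 1524, 1240 and 1074 CPM. The sum in control 3 thus lay inside the range of the exercised libraries, and apolpp alone made up a large part of it.

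The members did not all follow that sum. In 26 of the 41, every exercised library stood at least 3-fold above the base, a pattern that 2.64% of all tested genes met. A further 8 members were at least 3-fold above the base in no exercised library, and 7 in 1 or 2 of them. The base was itself low by the rule, and the share over all genes was not selected in that way, so that nothing is read from the gap between the counts. The mean exercised level of a member was a median 6.19 times the base, against 0.941 over all tested genes. Relative to control 3 it was a median 0.975 times, with 26 of 41 members within 2-fold of that library. The plot of the members in every library shows these classes one below another.

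**Figure D1:**
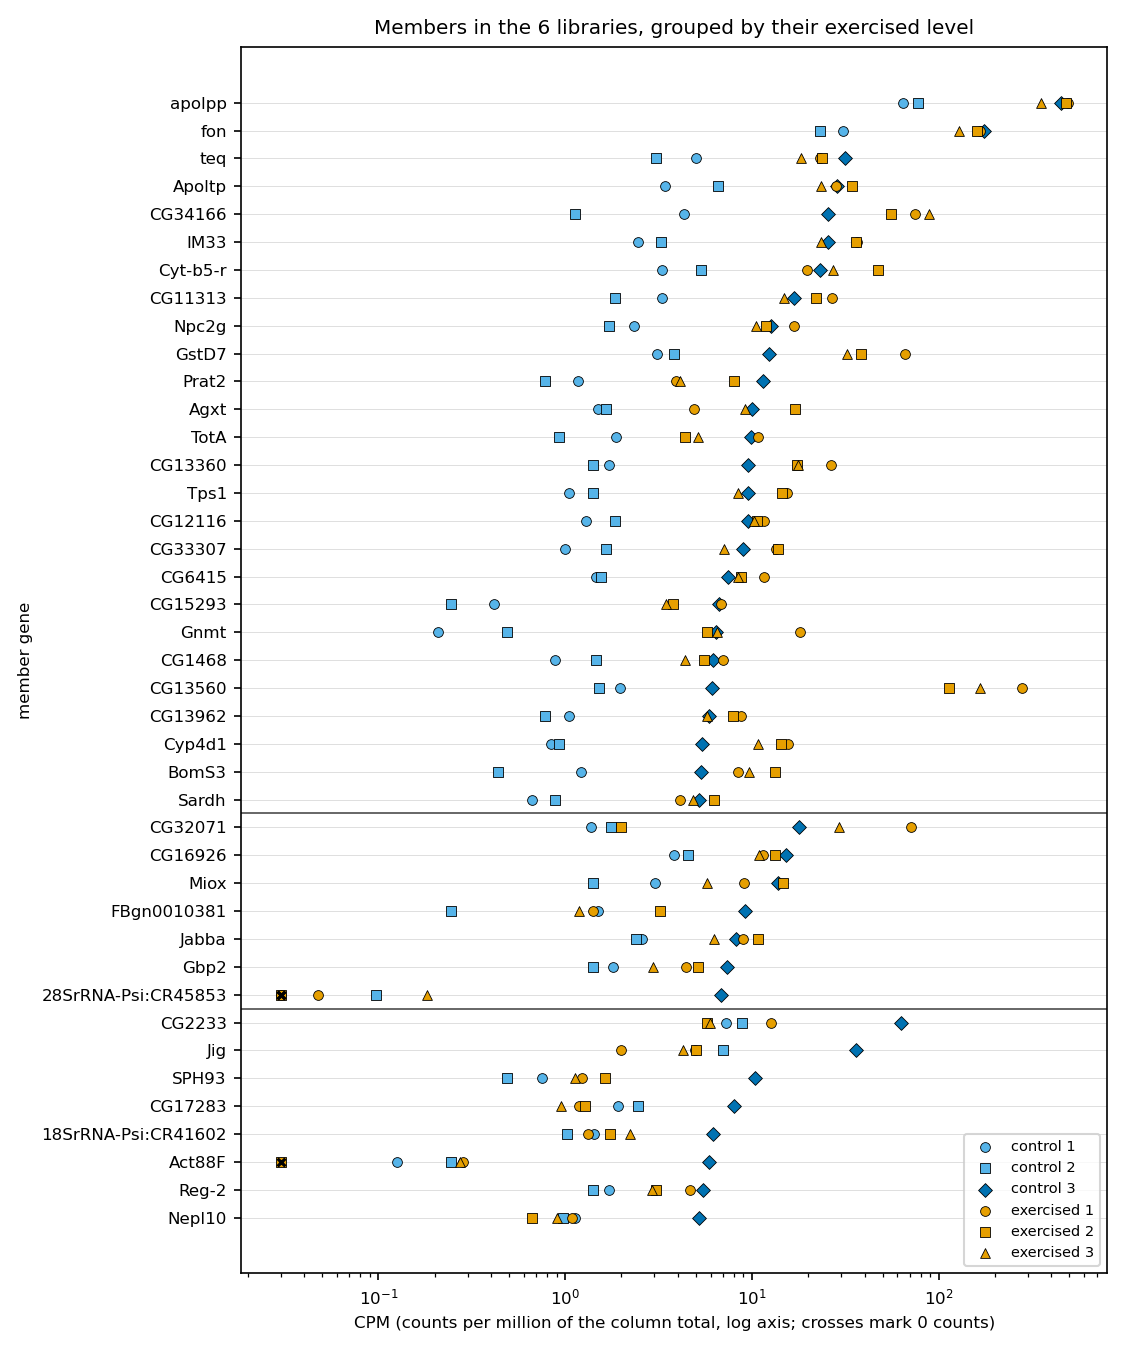
Each row is a member gene and each point its CPM in 1 library (log axis; blue, controls, with control 3 as the dark diamond; orange, exercised libraries; crosses mark 0 counts). In the upper block of 26 genes every exercised point lies at least 3-fold above the mean of controls 1 and 2, with CG13560 the farthest above control 3. In the lower block of 8 genes control 3 is the highest point by the definition of the block, and the 7 genes between are mixed.

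Among lipid carriers of the hemolymph, the members apolpp and Apoltp were high in control 3 by the rule, and also in all exercised libraries. The member with the most counts was apolpp (FBgn0087002, chromosome 4, 1060969 to 1077273 in release 6, exons of 11766 bp), which encodes apolipophorin, the main lipoprotein of the hemolymph. It was counted at 64.3 and 77.6 CPM in controls 1 and 2, 450.1 in control 3 and 489, 477 and 351 in exercised 1, 2 and 3. Controls 1 and 2 lay far below all other libraries, and control 3 lay between exercised 3 and exercised 2. Over all 6 libraries the log2 fold change of apolpp was 1.16 (SE 0.88), with an edgeR adjusted p of 0.431. Apoltp, the lipid transfer particle that loads lipid onto lipophorin, had 3.42 and 6.59 CPM, then 28.5 in control 3, then 28.01, 34.4 and 23.4 in the exercised libraries. Its exercised levels again enclosed control 3, and its log2 fold change was 1.17 (SE 0.84, edgeR adjusted p = 0.406).

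Npc2g, of the NPC2 family of sterol-binding proteins, followed with 2.34, 1.71 and 12.7 CPM in the controls against 16.8, 11.9 and 10.5 in the exercised libraries. Jabba, which anchors histones on lipid droplets, had 2.59 and 2.39 CPM in controls 1 and 2, 8.19 in control 3 and 8.93, 10.8 and 6.25 in exercised 1, 2 and 3. This gene reached 3-fold over the base in exercised 1 and 2 and stayed short of it in exercised 3. All 4 lipid genes had exercised means between 0.975 and 1.06 times control 3. Of the 16 genes on a list of lipoproteins and lipid transport, 13 were tested and 3 were members. EdgeR called 0 of the 13 higher and 2 lower (GLaz and LpR1), beside 10.3% and 8.52% of all tested genes. The counts were the same at an unadjusted p below 0.05. Without control 3 it called 4 higher, namely the 3 members and Npc2h, and 2 lower, beside 9.31% and 6.85% of all genes then tested. The rule required controls 1 and 2 to be low in the 3 members, so nothing is read from their calls. In 9 of the 13, the 3 members among them by the rule, control 3 was the highest control, as it was in 25.4% of all tested genes.

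Clotting, immune and stress proteins formed a second set of 6 named members, counting the cytokine Gbp2. The clot protein fondue, encoded by fon (FBgn0032773, chromosome 2L, 19383138 to 19386205, exons of 2276 bp), had 30.5 and 23.1 CPM in controls 1 and 2, 175 in control 3 and 166, 161 and 129 in exercised 1, 2 and 3. Per kilobase of exon it was the highest member in control 3, at 76.9 CPM per kb against 38.3 for apolpp. The log2 fold change of fon over all libraries was 1.00 (SE 0.89, edgeR adjusted p = 0.503). IM33, an immune-induced molecule, was next per length at 66.8 CPM per kb in control 3, and its levels were 2.46 and 3.27 CPM, then 25.5 in control 3, then 36.6, 36.0 and 23.4 in the exercised libraries.

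TotA, a Turandot peptide induced by stress, showed 1.88, 0.927 and 9.83 CPM in the controls against 10.8, 4.38 and 5.12 in the exercised libraries. Exercised 1 alone exceeded control 3 for this gene. BomS3, a Bomanin peptide of the Toll response, was counted at 1.21 and 0.439 CPM in controls 1 and 2, 5.34 in control 3 and 8.36, 13.2 and 9.61 in exercised 1, 2 and 3. All 3 exercised libraries stood above control 3. Gbp2, a growth-blocking peptide, had 1.80 and 1.42 CPM, then 7.34 in control 3, then 4.44, 5.15 and 2.95 in the exercised libraries. The serine protease homolog SPH93 went another way, with 0.751, 0.488 and 10.3 CPM in the controls against 1.23, 1.63 and 1.13 in the exercised libraries, so that control 3 was far above both groups. Lists of the same kind held few other members. Among 22 antimicrobial peptides and Bomanins in the table, 10 were tested, and edgeR called 1 higher and 0 lower (2 and 1 at an unadjusted p below 0.05). Without control 3 it called 2 higher, BomS3 being the one added, and 0 lower (2 and 0 unadjusted). Of 14 thioester and clotting proteins it called 3 higher and 0 lower (3 and 1 unadjusted). Without control 3 it called 5 of these higher, fon among them, and 0 lower (5 and 0 unadjusted). Over all tested genes the shares called were 10.3% higher and 8.52% lower, and without control 3 they were 9.31% and 6.85%. The rule required controls 1 and 2 to be low in BomS3 and fon, so nothing is read from their calls. TotA was the only one of 8 Turandot genes to pass the filter on low counts.

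Enzymes of metabolism and detoxification made up 9 members, 8 of which were at least 3-fold above the base in every exercised library. Gnmt, glycine N-methyltransferase, which uses up methyl groups of S-adenosylmethionine, had 0.209 and 0.488 CPM in controls 1 and 2, 6.41 in control 3 and 18.1, 5.76 and 6.48 in exercised 1, 2 and 3. Sardh, sarcosine dehydrogenase, which turns the product of that reaction back to glycine, had 0.668 and 0.879 CPM, then 5.21 in control 3, then 4.11, 6.27 and 4.80 in the exercised libraries. Both were close to control 3 in exercised 2 and 3, whereas exercised 1 was high for Gnmt and the lowest exercised library for Sardh. On a list of phenylalanine, tyrosine, tryptophan and methionine catabolism, 14 genes were tested, and 1 was called higher and 5 lower, beside 10.3% and 8.52% of all tested genes. Without control 3, 4 were called higher, Gnmt and Sardh among them, and 4 lower, beside 9.31% and 6.85% of all genes then tested. The rule required controls 1 and 2 to be low in Gnmt and Sardh, so nothing is read from their calls. Control 3 was the highest control in 11 of the 14 genes, which include Gnmt and Sardh by the rule, against 25.4% of all tested genes.

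Agxt, alanine-glyoxylate aminotransferase, was counted at 1.503 and 1.66 CPM in controls 1 and 2, 10.1 in control 3 and 4.91, 17.1 and 9.16 in exercised 1, 2 and 3. Prat2, for the first step of purine synthesis, had 1.17 and 0.781 CPM, then 11.4 in control 3, then 3.92, 8.00 and 4.12 in the exercised libraries. For Prat2 control 3 lay above every exercised library, with an exercised mean of 0.470 times its level. Tps1, trehalose-6-phosphate synthase, which makes the blood sugar of insects, showed 1.04, 1.42 and 9.52 CPM in the controls against 15.4, 14.5 and 8.43 in the exercised libraries. Miox, myo-inositol oxygenase, had 3.01 and 1.42 CPM in controls 1 and 2, 13.7 in control 3 and 9.07, 14.6 and 5.76 in exercised 1, 2 and 3. Exercised 3 fell short of 3-fold over the base for Miox, and the other exercised libraries reached it. The cytochrome b5-related gene Cyt-b5-r had 3.30 and 5.32 CPM, then 23.1 in control 3, then 19.8, 47.4 and 27.1 in the exercised libraries.

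Cyp4d1, a cytochrome P450, was higher in each exercised library than in control 3, with 0.835, 0.927 and 5.43 CPM in the controls against 15.6, 14.4 and 10.7 in the exercised libraries. GstD7 (FBgn0010043, chromosome 3R, 12378500 to 12379255), a delta-class glutathione S-transferase, went further in that direction, with 3.09 and 3.81 CPM in controls 1 and 2, 12.4 in control 3 and 65.9, 38.4 and 32.0 in exercised 1, 2 and 3. It was 1 of 2 members called over all 6 libraries, with a log2 fold change of 2.85 (SE 0.67, edgeR adjusted p = 0.0445). That call was lost when any 1 library other than control 3 was left out, with an adjusted p between 0.0969 and 0.122. GstD7 belongs to a family of similar neighbouring genes, among which the assignment of reads was not given in the sources used here. Of 34 tested glutathione S-transferases 11 were called higher and 3 lower. Of 61 tested cytochrome P450 genes 6 were called higher and 11 lower. The shares over all tested genes were 10.3% higher and 8.52% lower. Without control 3 these counts were 15 and 3 of 34 glutathione S-transferases and 11 and 9 of 64 cytochrome P450 genes. All genes were then called at 9.31% higher and 6.85% lower. GstD7 and Cyp4d1 are low in controls 1 and 2 by the rule, so nothing is read from their calls in that fit.

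Of the 14 members known only by CG symbols, 10 were at least 3-fold above the base in every exercised library. The widest excess was that of CG13560 (FBgn0034899), with 1.96 and 1.51 CPM in controls 1 and 2, 6.10 in control 3 and 279.9, 113 and 166 in exercised 1, 2 and 3. It entered just over the 3-fold threshold, and its exercised mean was 30.6 times control 3. Its log2 fold change of 5.89 (SE 0.74) was called, with an edgeR adjusted p of 0.00727, and stayed called without each library in turn (adjusted p at most 0.0407). CG34166 had 4.34 and 1.12 CPM, then 25.5 in control 3, then 74.5, 55.3 and 89.1 in the exercised libraries, an exercised mean of 2.86 times control 3. CG13360 also stood above control 3 in all exercised libraries, with 1.71, 1.42 and 9.57 CPM in the controls against 26.4, 17.4 and 17.5 in the exercised libraries.

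Others of this kind were close to control 3. CG11313 had 3.30 and 1.85 CPM in controls 1 and 2, 16.7 in control 3 and 26.9, 22.1 and 14.9 in exercised 1, 2 and 3. CG12116 had 1.29, 1.85 and 9.48 CPM in the controls against 11.5, 10.6 and 10.2 in the exercised libraries. CG15293 had 0.417 and 0.244 CPM, then 6.67 in control 3, then 6.85, 3.77 and 3.44 in the exercised libraries. Controls 1 and 2 held few counts of CG15293, for which control 3 was 20.2-fold above the base. CG33307, CG6415, CG1468 and CG13962 had exercised means between 0.911 and 1.28 times control 3. CG11313 and Npc2g are near neighbours on chromosome 3R, 13439 bp apart with CG15543 between them, and were the only protein-coding members within 20 kb of each other. By chromosome, 11 members were on 2L, 7 on 2R, 5 on 3L, 8 on 3R, 8 on X and 1 on 4.

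**Figure D2:**
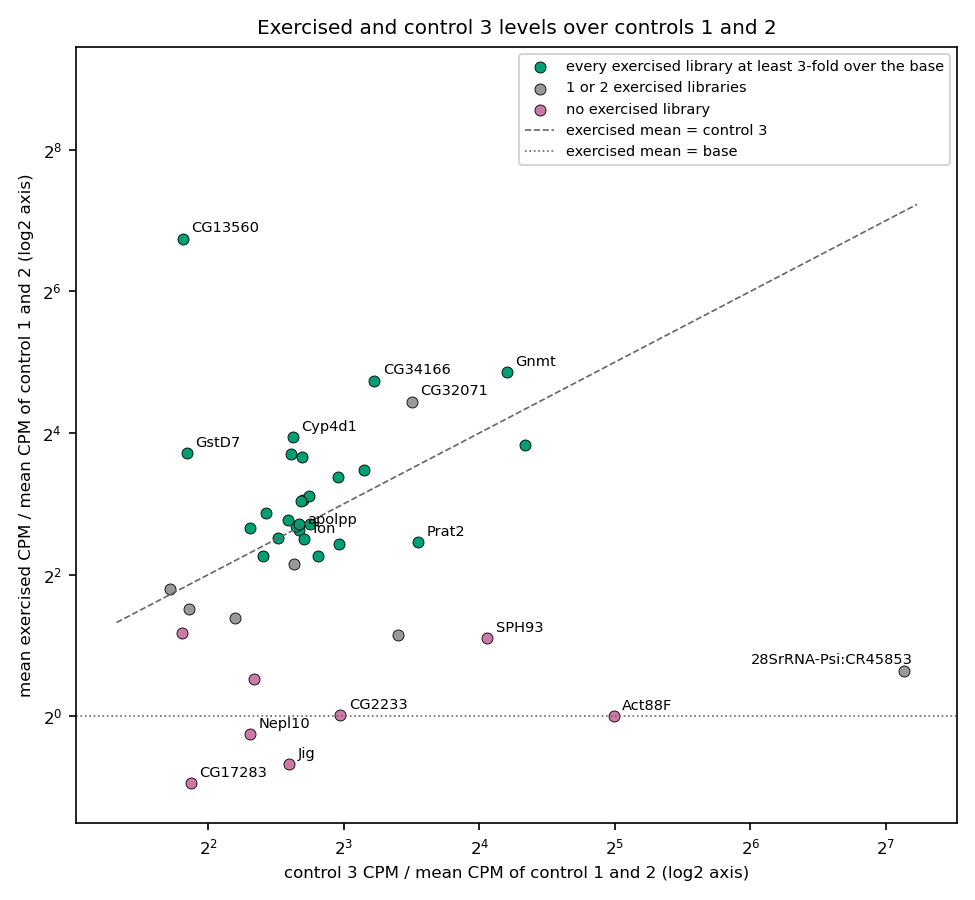
For each member, the level in control 3 over the base (mean of controls 1 and 2) is on the x axis and the mean exercised level over the base on the y axis, both as CPM ratios on log2 axes; colours give the number of exercised libraries at least 3-fold above the base. Genes on the dashed line have equal levels in control 3 and the exercised mean, CG13560 and GstD7 lie well above it, and Jig, CG17283 and Nepl10 lie below the dotted line of the base.

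The 8 members under 3-fold over the base in every exercised library summed to 19.2 and 22.5 CPM in controls 1 and 2, 140.3 in control 3, and 24.3, 19.1 and 18.6 in the exercised libraries. For all 8, control 3 lay above every exercised library, which follows from the rule and the definition of this class. CG2233 (FBgn0029990, chromosome X) had 7.22 and 8.84 CPM in controls 1 and 2, 63.1 in control 3 and 12.6, 5.76 and 5.98 in exercised 1, 2 and 3. Jig had 4.93 and 7.03 CPM, then 36.2 in control 3, then 1.98, 4.99 and 4.26 in the exercised libraries, so that all 3 exercised libraries were below control 2 and only exercised 2 reached the level of control 1. The log2 fold changes of these 2 genes over all libraries were -1.69 (SE 1.05, edgeR adjusted p = 0.336) and -2.09 (SE 0.97, edgeR adjusted p = 0.213).

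CG17283 was lower in each exercised library than in each control, with 1.92, 2.44 and 7.97 CPM in the controls against 1.18, 1.27 and 0.952 in the exercised libraries. Nepl10, a neprilysin-like peptidase, had 1.13 and 0.976 CPM in controls 1 and 2, 5.21 in control 3 and 1.09, 0.662 and 0.906 in exercised 1, 2 and 3. The rhythmically expressed gene Reg-2 was the mildest of the class, with 1.71 and 1.42 CPM, then 5.47 in control 3, then 4.63, 3.06 and 2.90 in the exercised libraries. Its exercised levels lay between the base and control 3 rather than at the base. Among the peptidases, Tequila (teq), a serine protease with several binding domains, was on the other side with 5.01, 3.08 and 31.6 CPM in the controls against 23.1, 23.7 and 18.3 in the exercised libraries. It was at least 3-fold above the base in every exercised library and below control 3 in each.

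Act88F, the actin of adult flight muscle, was listed with 3, 5 and 132 counts in the controls and 6, 0 and 6 in the exercised libraries. It did not pass the filter on low counts. Act79B, a related actin looked up after the values were seen, had 1, 2 and 24 counts in the controls and 2, 0 and 4 in the exercised libraries. The flight muscle genes fln and TpnC4, looked up likewise, had 0 counts in control 3 and at most 3 in any library. Near-identical actins are abundant in body wall muscle and reads may be split between them, so that both actin values are uncertain. The 2 ribosomal RNA pseudogenes are uncertain in the same way. On chromosome X, 28SrRNA-Psi:CR45853 had 0, 2 and 154 counts in the controls and 1, 0 and 4 in the exercised libraries, and 18SrRNA-Psi:CR41602 had 1.42 and 1.03 CPM in controls 1 and 2, 6.19 in control 3 and 1.32, 1.73 and 2.22 in exercised 1, 2 and 3. All 23 annotated rRNA pseudogenes together gave 10.5 and 10.8 CPM in controls 1 and 2, 30.1 in control 3 and between 10.96 and 15.6 in the exercised libraries. The rRNA genes themselves gave between 10359 and 12642 CPM with control 3 inside that range. The part of rRNA carry-over in the result was not tested.

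In the 7 mixed members the highest exercised library was a median 2.54 times the lowest, against 1.60 in the 26 members of the first class. Exercised libraries of the mixed class lie on both sides of the 3-fold line by definition, so nothing is read from this contrast. CG32071 had 1.38 and 1.76 CPM in controls 1 and 2, 17.8 in control 3 and 70.9, 1.99 and 29.3 in exercised 1, 2 and 3, so that exercised 2 was near the base and exercised 1 about 4 times control 3. FBgn0010381 had 1.503 and 0.244 CPM, then 9.21 in control 3, then 1.42, 3.21 and 1.18 in the exercised libraries, and only exercised 2 passed 3-fold. CG16926 had 3.80, 4.54 and 15.1 CPM in the controls against 11.4, 13.2 and 10.9 in the exercised libraries, with exercised 2 alone past 3-fold. For 28SrRNA-Psi:CR45853 the 1 library past 3-fold rested on 4 counts. Over the 41 members the highest exercised library was a median 1.68 times the lowest, against 1.24 over all tested genes, and in 5 members the ratio was above 3. These 5 include 28SrRNA-Psi:CR45853 and Act88F, which were not tested and whose ratio has no finite value, exercised 2 having 0 counts. Ratios of genes with few counts spread more, and 23 of the 41 members lay under 10 CPM in control 3. Level was not matched, so nothing is read from the contrast with all tested genes. Exercised 3 was the lowest of the exercised libraries in 24 members, and in 28% of tested genes. Exercised 1 was the highest in 22 members, and in 38.7% of tested genes.

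The number of members called by edgeR depended on control 3. Over all 6 libraries, 2 of the 39 members tested were called higher (GstD7 and CG13560) and 0 lower, beside 10.3% and 8.52% of all tested genes. The rule set control 3 apart from controls 1 and 2 in every member, which widens the spread within the controls. Few calls are thus favoured by the rule, and nothing is read from the low share. At an unadjusted p below 0.05, 5 members were higher and 1, CG17283, was lower. DESeq2 called 3 higher and 1 lower, again CG17283, and limma-voom called 9 higher and 0 lower. With control 3 left out, edgeR called 30 of 39 fitted members higher and 0 lower, beside 9.31% and 6.85% of the 9325 genes then tested. At an unadjusted p below 0.05 in that fit, 32 were higher and 1 lower. These 30 included all 26 members of the first class, Reg-2 among the 7 fitted of the class under 3-fold, and CG16926, Jabba and Gbp2 among the 6 fitted mixed members. Controls 1 and 2 are low in these genes by the rule, and nothing is read from the excess over the background.

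Without control 3, the log2 fold change of apolpp was 2.72, that of Apoltp 2.62 and that of fon 2.59. The values for CG34166 and Cyp4d1 moved from 2.83 and 2.52 to 4.79 and 4.03. The log2 fold change of CG2233 turned from -1.69 to 0.11, and that of Jig moved from -2.09 to -0.58. For GstD7 and CG13560 it moved from 2.85 and 5.89 to 3.81 and 6.82. All these values set the exercised libraries against the 2 controls that the rule required to be low, and are given as a description with no p.

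The description of the members as fat body-like was set against a list of 12 fat body markers. Summed over the list, the level was 1204 and 934 CPM in controls 1 and 2, 4221 in control 3 and 7628, 6549 and 5670 in the exercised libraries. Control 3 was the highest control in 9 of the 12, as in 25.4% of all tested genes. Of these 9, apolpp, Apoltp, Lsp1alpha and Lsp1beta passed the thresholds of the rule and had to be highest there, so that the count is no independent check of the label. The larval serum proteins Lsp1alpha and Lsp1beta, which passed the thresholds and were left out by symbol, carried most of the sum in control 3. Lsp1beta had 272 and 218 CPM in controls 1 and 2, 1852 in control 3 and 2389, 2073 and 1715 in exercised 1, 2 and 3. Lsp1alpha had 182, 129 and 1098 CPM in the controls against 1261, 1240.3 and 1075 in the exercised libraries. Both followed apolpp, with control 3 inside the range of the exercised libraries. Obp99c and Cpr49Ac were the other genes left out, and Obp99c had 2.25 and 2.93 CPM, then 15.4 in control 3, then 14.2, 12.7 and 9.79 in the exercised libraries. The marker Fbp2 did not pass the thresholds. It had 36.3, 9.32 and 104.6 CPM in the controls against 101.7, 130.1 and 131.8 in the exercised libraries. Lsp2 had 6.10, 1.27 and 11.1 CPM in the controls against 34.2, 22.4 and 20.9, so that control 3 lay below every exercised library.

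Other markers went against the label. Lsp1gamma, another serum protein of that family, had 2.25, 2.68 and 1.74 CPM in the controls against 2379.6, 2061 and 1613 in the exercised libraries, so that control 3 was the lowest library of all for it. The transcription factor gene srp had 8.35 and 16.2 CPM in controls 1 and 2, 13.9 in control 3 and 11.01, 13.7 and 8.34 in exercised 1, 2 and 3. For this gene the groups overlapped and control 3 lay between the other controls. FASN1, a fatty acid synthase, had 124 and 138 CPM, then 126 in control 3, then 620.3, 209 and 392 in the exercised libraries. Tsf1, transferrin, had 503, 336 and 533 CPM in the controls against 309, 279 and 329.8 in the exercised libraries, and control 3 exceeded control 1 by little. Fbp1, the receptor for serum proteins, was at or near 0 counts in every control. Fbp1, Lsp1gamma, FASN1 and the hormone receptor gene AkhR were the 4 of 12 markers called higher in exercised larvae by edgeR, and 0 were called lower (5 and 1 at an unadjusted p below 0.05). Without control 3 the calls were 7 higher and 0 lower (10 and 0 unadjusted), with apolpp, Apoltp, Lsp1alpha and Lsp1beta added and FASN1 lost. Over all tested genes the shares called were 10.3% higher and 8.52% lower, and without control 3 they were 9.31% and 6.85%. The thresholds required controls 1 and 2 to be low in the 4 added genes, so nothing is read from their calls. The calls of FASN1 and AkhR were lost without 1 or more of the libraries (edgeR adjusted p up to 0.133 and 0.0569). Control 3 thus carried part of the fat body list at the exercised level and part of it at the level of the other controls.

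**Figure D3:**
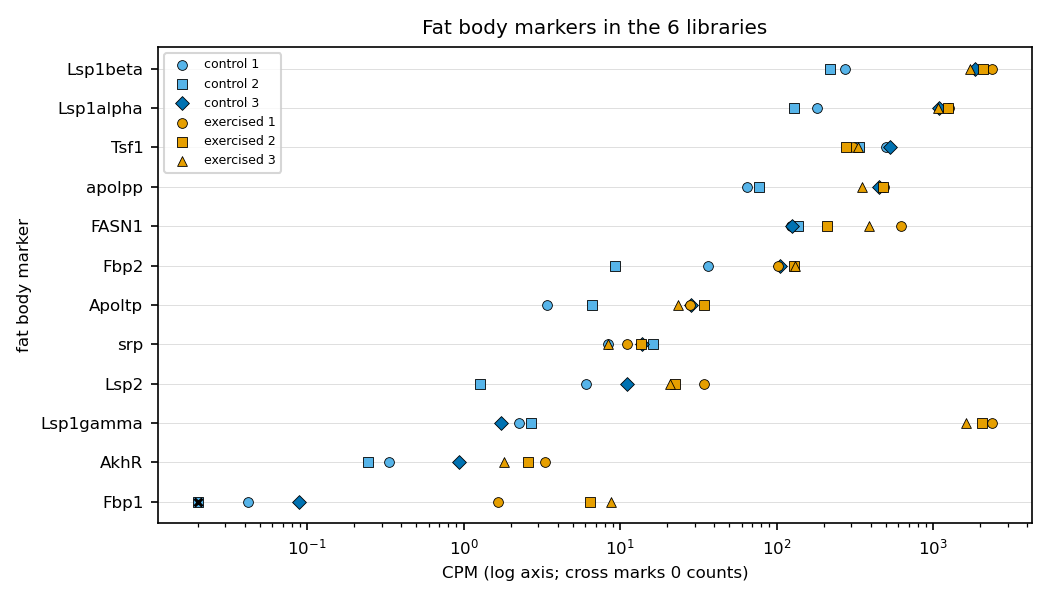
CPM of 12 fat body markers in each library on a log axis, ordered by their level in control 3 (dark diamond; crosses mark 0 counts). Lsp1beta, Lsp1alpha, apolpp, Apoltp and Fbp2 have control 3 among the orange exercised points, whereas Lsp1gamma, Fbp1 and FASN1 have it with the other controls.

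Of the 12 marker lists, 4 had summed levels that set controls 1 and 2 apart from the other libraries. The fat body list was lower in controls 1 and 2, whereas the Malpighian tubule, germ line and neuron and glia lists were higher there. In control 3 the fat body sum was mostly that of Lsp1alpha and Lsp1beta, which with apolpp and Apoltp passed the thresholds of the rule. The order of control 3 and controls 1 and 2 in that list is therefore no independent result. The 5 Malpighian tubule markers summed to 6.97 and 6.44 CPM in controls 1 and 2, 1.47 in control 3 and 1.46, 1.38 and 1.13 in exercised 1, 2 and 3. Uro, urate oxidase, had 2.88 and 2.25 CPM in controls 1 and 2, 0.0445 in control 3 and 0, 0 and 0.0906 in exercised 1, 2 and 3. ZnT35C, a zinc transporter gene, had 1.09, 1.42 and 0 CPM in the controls against 0, 0 and 0.0453 in the exercised libraries. In these excretory tubule markers control 3 thus lay with the exercised libraries, opposite in direction to the members. The 7 germ line markers in the table summed to 3.26 and 3.03 CPM in controls 1 and 2 and to between 1.20 and 2.54 CPM elsewhere, and neuron and glia markers to 50.1 and 48.7 against between 32.5 and 44.2 CPM. Most of the germ line sum in controls 1 and 2 was twe (2.80 and 2.20 CPM), the only marker of that list to pass the low-count filter. Of the 5 neuron and glia markers, 1 (Syt1) had control 3 as the highest control, at 8.81 CPM against 7.43 and 5.86. The part of these tissues in the result was not tested. The 10 hemocyte markers summed to between 883 and 1824 CPM, with control 2, control 3 and exercised 1 and 3 close together and control 1 lowest. Midgut markers summed to between 1.21 and 2.00 CPM in every library, with 6 of 13 at 0 throughout. Salivary gland markers summed to between 1.07 and 11.5 CPM, highest in exercised 3. Muscle markers summed to between 147966 and 160346 CPM, control 3 being the highest by little. Yp3, a yolk protein gene looked up after the values were seen, was just under the minimum with 0.0835 and 0.0488 CPM in controls 1 and 2, 4.05 in control 3 and 8.31, 4.08 and 4.53 in exercised 1, 2 and 3, whereas Yp1 and Yp2 had at most 6 counts in any library. Dissection, the share of fat body left on the body wall, larval stage and sex of the pooled larvae are not given per library, and their part in the result was not tested.

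**Figure D4:**
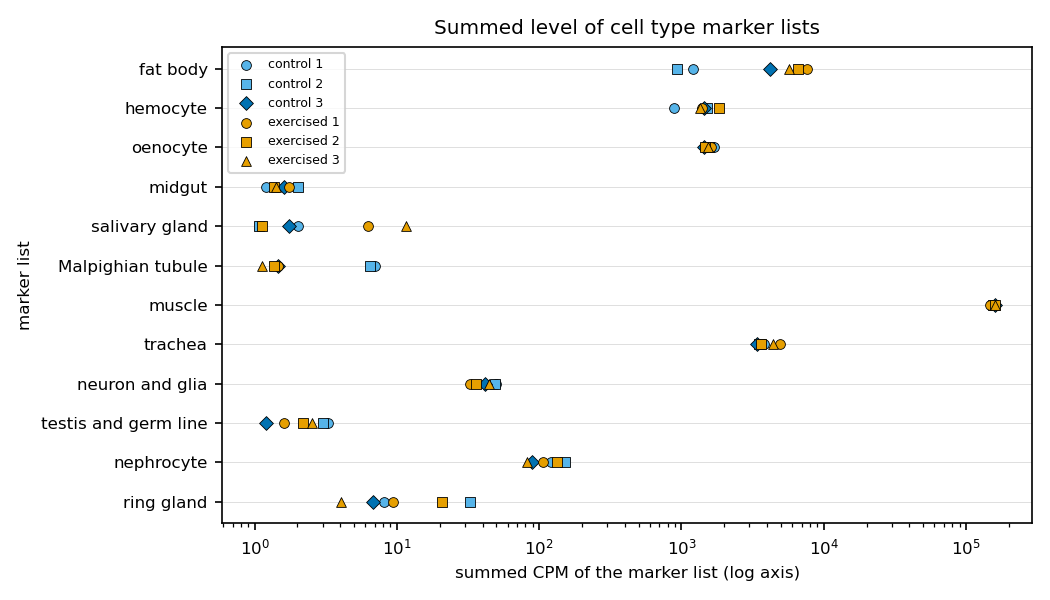
Summed CPM of 12 cell type marker lists in each library on a log axis (blue, controls, with control 3 as the dark diamond; orange, exercised libraries). The fat body list has controls 1 and 2 below the other libraries, and the Malpighian tubule, germ line and neuron and glia lists have them above. Most of the fat body sum in control 3 is that of genes past the thresholds of the rule. In the other 8 lists they overlap with the rest.

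At the edge of the rule, the members closest to 3-fold were CG13560, Jabba, Reg-2 and GstD7, with 3.11, 3.16, 3.20 and 3.25 times the higher of controls 1 and 2. The genes just outside were Ag5r, CG14762, lcs and CG14265, at 2.92, 2.72, 2.70 and 2.61 times. Ag5r had 21.7, 23.5 and 68.5 CPM in the controls against 6.99, 4.74 and 4.26 in the exercised libraries, so that, as for CG17283, each exercised library was below each control. Sardh, Nepl10, BomS3 and Cyp4d1 lay just above the minimum of 5 CPM. Sodh1, Srg1, NimB3 and CG7320 lay just under it, at between 4.18 and 4.94 CPM in control 3.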

How the data were processed

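The authors deposited 1 table of gene counts, not normalized, for 3 control and 3 exercised libraries. Per the labels and the methods, single-end reads were checked with FastQC, mapped with STAR to release 6 of the Drosophila genome and counted with featureCounts. Not given in the sources used here were their versions, the annotation, the strand setting and how reads with several matches were treated. All 6 columns were mapped by name, and 0 were left unmapped. Symbols came from a reference list of gene names and otherwise from the Ensembl annotation of release 6, which also gave the positions. In neither source were 277 identifiers, which hold 4.08% of counts.

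CPM was count over column total. The main test was edgeR 4.0.16 (quasi-likelihood, TMM scaling, filterByExpr, condition only) over 9127 genes, with Benjamini-Hochberg adjustment at 0.05. DESeq2 1.42.0, limma 3.58.1 (voom), other scalings and filters, a replicate block and leaving out each library were alternatives. Members and lists were chosen with earlier results of these data known. Named were the members highest in control 3, those highest or lowest against the base or in exercised larvae, those called, those on a list and those at the threshold. The rest, and genes looked up later, were named after their values were seen.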

Additional observations from a re-analysis of the deposited data

How the results depend on the processing

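Genes called between exercised and control larvae numbered 1714 by edgeR, 1064 with a replicate block, and between 827 (without exercised 3) and 1781 (without exercised 2) when 1 library was left out, with 1030 without control 2. Members called higher numbered 2 of 39 tested, beside 10.3% of all tested genes. The rule widened the spread among the controls in every member, so nothing is read from how few were called. Members called higher numbered 9 by limma-voom, 1 without the low-count filter and 1 with the replicate block. Leaving out 1 library gave 1, except for control 3, on which the rule chose the members. Without control 3 the number was 30, beside 9.31% of all genes then tested, and nothing is read from that excess. Members called lower numbered 0, beside 8.52% of all tested genes. They numbered 1 by DESeq2 and between 0 and 1 when 1 library was left out. Deviations from the group mean in same-numbered libraries had correlations across genes of -0.22, 0.00 and -0.24. For other pairs they lay between -0.0098 and 0.29, the latter for control 1 with exercised 3. Deviations from a mean of 3 libraries are tied to each other, and the labels state no pairing. These values therefore cannot decide whether the numbers pair the libraries. The rule found 41 members, 89 at a minimum of 1 CPM and 18 at 10 CPM, while the 2-fold and 4-fold thresholds and TMM scaling gave 60, 35 and 43. Leaving out 1 library moved the log2 fold change of CG2233 from -1.69 to as high as 0.11 (lowest -2.15) and that of Reg-2 from 0.32 to between -0.011 and 1.26. That of Jig lay between -2.52 and -0.58, the latter without control 3. The values of 0.11 and 1.26 also came without control 3, the library on which the rule chose the members. What set control 3 apart in these genes was not tested. The count of 26 members at least 3-fold above the base in every exercised library was 26 with TMM scaling. It was 25 with control 1 alone as the base and 26 with control 2 alone. Leaving out 1 exercised library gave between 26 and 28, and a 2-fold threshold gave 29. Most members held few reads in controls 1 and 2, which limits the precision of each ratio.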
